A study of Mus musculus with 18 samples.

Results

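The 9 genes described here encode small heat shock proteins and their chaperone partners in mouse quadriceps muscle. They are the small heat shock genes Hspb1, Hspb2, Hspb3, Hspb6, Hspb7, Hspb8 and Cryab, the co-chaperone gene Bag3 and the inducible HSP70 gene Hspa1b. They were chosen by symbol from the 48709 genes that each library lists, and all 9 were found and passed the filter on low counts in every comparison. Small heat shock proteins hold unfolding proteins in a state from which HSP70 can refold them, without using ATP themselves. In striated muscle they sit on desmin, actin, titin and filamin, and BAG3 joins HSPB8 to HSP70 to send damaged filamin to autophagy. Heat shock factor 1 raises the stress-inducible members by binding heat shock elements, which are inverted repeats of the letters GAA and TTC.

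Whole quadriceps RNA from 18 mice was sequenced, with 1 library for each mouse. The mutant mice are called dyW and belong to the strain B6.129S1(Cg)-Lama2tm1Eeng/J; the labels describe them as knock-outs of the gene for laminin alpha 2, name the colony's mutants hemizygotes, and give the disease state as LAMA-2 CMD, a disorder of muscle short of that laminin chain. C57BL/6J mice served as wild type (WT). TD139 inhibits galectin-3, and the library names set it against PBS, a buffer. The groups were untreated dyW (n = 4) and untreated WT (n = 3), both with an age label of 5 weeks, and dyW TD139 (n = 3), dyW PBS (n = 3), WT TD139 (n = 2) and WT PBS (n = 3), all with an age label of 3 weeks. The protocol gives collection at 5 weeks for every mouse, so the age of the PBS and TD139 mice is not certain. How much TD139 was given, by which route and for how long is not stated.

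Libraries held 15.8 M to 45.2 M exon reads (M, mega), with dyW PBS replicate 1 the shallowest. The targeted gene Lama2 had 0.545 to 1.10 RPKM (reads per kilobase of exon, scaled to library size) in dyW libraries and 2.18 to 5.02 RPKM in WT libraries, with no overlap. The 8 skeletal muscle markers summed to at least 37929 RPKM in every library. The 9 genes took 0.408% to 0.538% of exon reads in untreated dyW libraries, against 0.210%, 0.128% and 0.520% in untreated WT replicates 1, 2 and 3. RPKM levels are not corrected for differences in RNA composition, while the log2 fold changes below are from edgeR's quasi-likelihood test with TMM scaling, with p-values adjusted by Benjamini-Hochberg over all genes tested. Computed over all 18 libraries, TMM factors were 1.15 to 1.35 in untreated dyW and 0.796 to 0.926 in untreated WT libraries. The fit of the 7 untreated libraries computed its own factors, which are not given here. For the members, a ratio of RPKM means lies above the fitted fold change in that comparison. In bulk tissue, fewer cells of a type and less RNA per cell cannot be told apart.

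Several libraries stood apart in these genes. Untreated WT replicate 3 had 883 RPKM of Hspa1b, against 2.43 and 1.55 RPKM in untreated WT replicates 1 and 2, and the highest value among the other 17 libraries was 17.3 RPKM. WT PBS replicate 1 had 442 RPKM of Myh7, the slow muscle myosin heavy chain, against 0.0638 and 0.0207 RPKM in the other WT PBS libraries. Untreated dyW replicates 3 and 4 also carried high Myh7, at 236 and 291 RPKM, against 0.807 and 21.03 RPKM in untreated dyW replicates 1 and 2. Results that rest on these libraries are given with and without them. Every library was left out in turn, but these were singled out by the values above, so p-values without them are descriptive. Leaving out both of these untreated dyW libraries, or 2 WT libraries together, was decided after the data were seen.

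The members differed widely in level. Cryab, alpha-B crystallin, was the highest member in 17 of 18 libraries, with a median of 454 RPKM over all libraries. Hspb6 followed at a median of 256 RPKM, then Hspb8 at 213, Hspb7 at 169.9 and Hspb1 at 169 RPKM. Hspb2 had a median of 59.5, Bag3 of 52.3 and Hspb3 of 34.9 RPKM, and Hspa1b was lowest at 4.92 RPKM. Neighbours in this order overlapped in their ranges over the libraries, except Hspb3 and Hspa1b: Hspa1b lay below the range of Hspb3 in 17 libraries and above it in untreated WT replicate 3. Hspb2 varied least, with a highest library 1.97 times its lowest, followed by Hspb8 at 2.54 times and Hspb3 at 2.74 times. Hspb7 varied 51.2-fold. Hspa1b varied 569.5-fold over all libraries and 11.2-fold without untreated WT replicate 3.

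**Figure D1:**
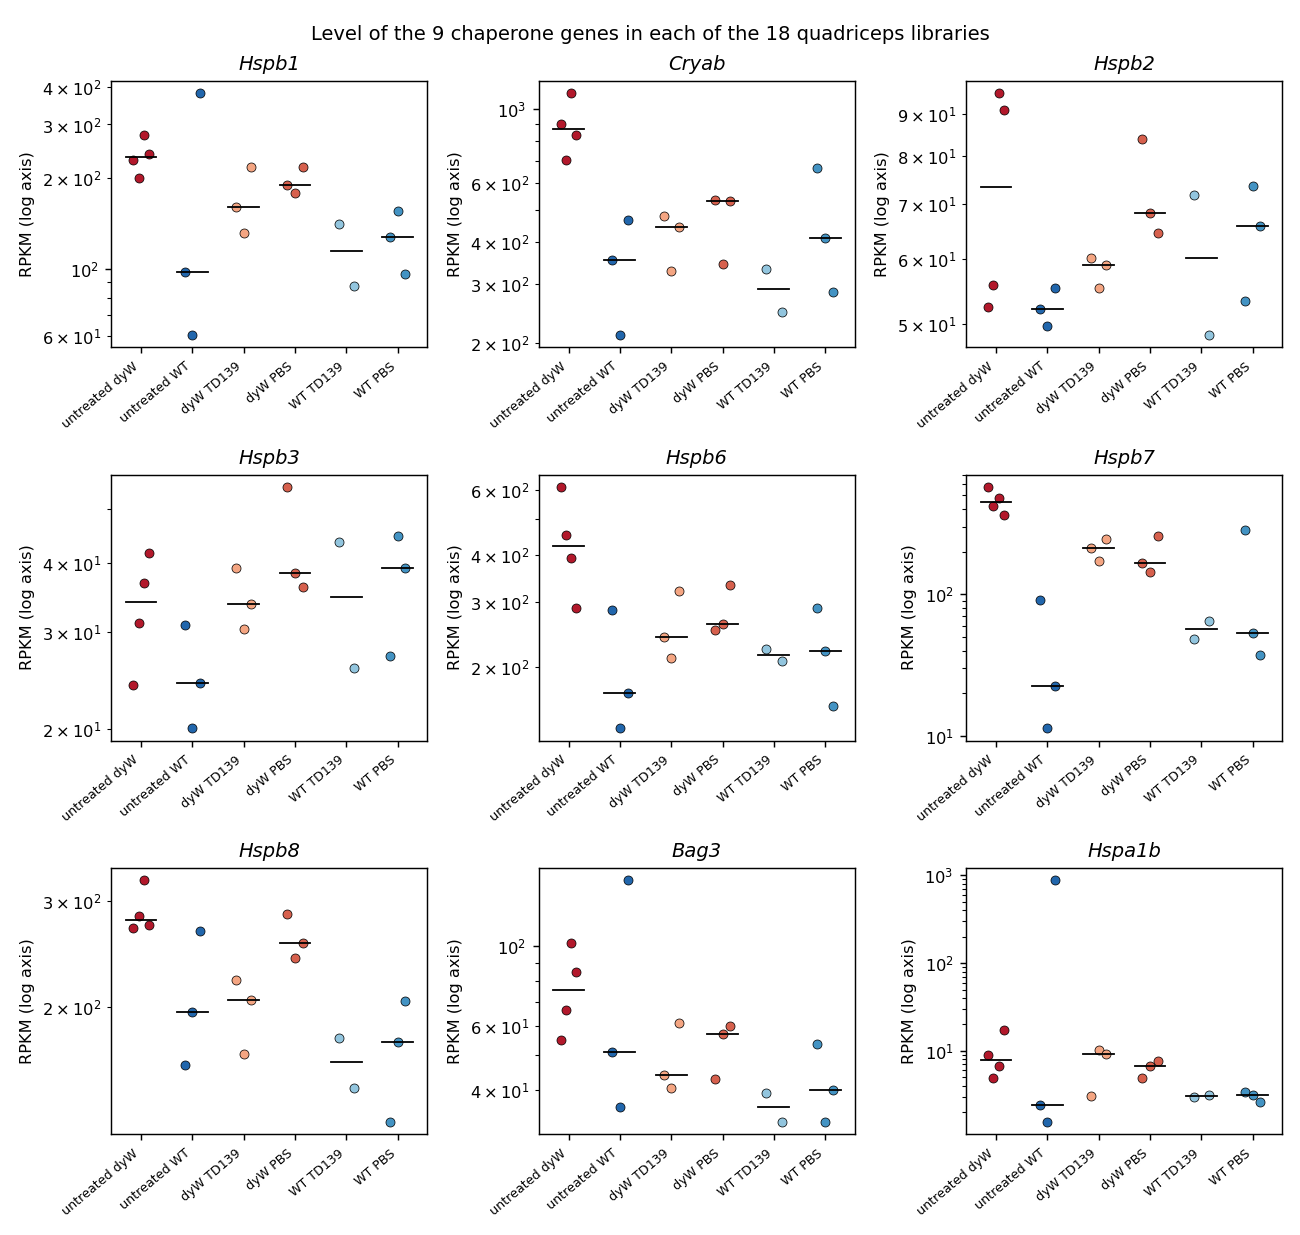
RPKM (log axes) of the 9 genes in each of the 18 libraries, 1 point per mouse, with a bar at each group's median. Hspb7 lies between 364 and 577 RPKM in untreated dyW and between 11.3 and 90.8 RPKM in untreated WT, and a single untreated WT library carries Hspa1b at 883 RPKM.

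Hspa1b, Hspb1 and Bag3 were the members that exceeded both other untreated WT libraries by more than 2 times in untreated WT replicate 3. Hspa1b (ENSMUSG00000090877, chr17:34956436-34959238 in mm10, minus strand, 1 exon) encodes a stress-inducible HSP70, the ATP-driven chaperone that refolds clients. In untreated dyW replicates 1 to 4 it had 8.88, 4.90, 6.70 and 17.3 RPKM, against 2.43, 1.55 and 883 RPKM in untreated WT replicates 1 to 3. All 4 dyW libraries were above the first 2 WT libraries and below the last, so the groups overlapped. The fitted log2 fold change of untreated dyW over untreated WT was -5.55 ± 1.88 (SE, adjusted p = 0.0365). Without untreated WT replicate 3 the direction turned, to 1.75 ± 0.52 (adjusted p = 0.0333). The call for a lower level was also lost when any 1 untreated dyW library was left out, with log2 fold changes of -5.53, -5.31, -5.36 and -5.99 and adjusted p of 0.0722, 0.0882, 0.0861 and 0.0577 for replicates 1 to 4. With sex as a term it was -4.84 (adjusted p = 0.109), and with limma on log2(RPKM + 0.1) it was -0.85 (adjusted p = 0.716). DESeq2 put this gene at -5.56 but gave it neither a p nor an adjusted p.

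Hspa1b cannot be read apart from Hspa1a, its near-identical neighbour 9951 bases away, which encodes a nearly identical HSP70. Between 45.9% and 59.6% of the Hspa1b exon reads were unique to it in each library. With unique reads alone the log2 fold change was -5.44 ± 1.85 (adjusted p = 0.0370), close to that with all reads. Hspa1a had 8.41, 6.30, 5.38 and 14.1 RPKM in untreated dyW, against 3.49, 1.08 and 691 RPKM in untreated WT, the same library being high. Its log2 fold change was -5.34 ± 1.80 (adjusted p = 0.0357) with all libraries and 1.44 ± 0.53 (adjusted p = 0.0665) without untreated WT replicate 3.

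Hspb1 (ENSMUSG00000004951, chr5:135887919-135889563, plus strand, 5 listed exons) encodes HSP27, a broadly expressed small heat shock protein that binds actin. It had 229, 199.7, 277 and 239.6 RPKM in untreated dyW, against 97.5, 60.3 and 381 RPKM in untreated WT. Every dyW library exceeded WT replicates 1 and 2, and WT replicate 3 was the highest of all 18 libraries. Fitted over all libraries, it was at a log2 fold change of -0.18 ± 0.54 (adjusted p = 0.803), and without untreated WT replicate 3 it was 1.07 ± 0.20 (adjusted p = 0.00617). Between 62.3% and 66.7% of its reads were unique, so part of its count could belong to another locus.

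Bag3 (ENSMUSG00000030847, chr7:128523616-128546981, plus strand, 4 listed exons) encodes the co-chaperone that couples HSPB8 to HSP70. It had 54.9, 66.5, 102 and 84.6 RPKM in untreated dyW, against 51.1, 35.9 and 152 RPKM in untreated WT. The dyW libraries lay above WT replicates 1 and 2 and below WT replicate 3. Its log2 fold change was -0.63 ± 0.45 (adjusted p = 0.274) with all libraries and 0.29 ± 0.23 (adjusted p = 0.333) without WT replicate 3.

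The promoters of these 3 members are shown because they were the members raised by more than 2 times in untreated WT replicate 3. That of Hspb7 is shown because it had the largest rise in untreated dyW. Sequences are RefSeq windows in GRCm38.p6 (mm10), 250 bases before to 50 after the annotated start, written along each gene's own strand: chr17:34959189-34959488 (minus) for Hspa1b, chr5:135887669-135887968 (plus) for Hspb1, chr7:128523333-128523632 (plus) for Bag3 and chr4:141420529-141420828 (plus) for Hspb7. Capitals mark the GAA and TTC units of a heat shock element with 2 units.
Hspa1b: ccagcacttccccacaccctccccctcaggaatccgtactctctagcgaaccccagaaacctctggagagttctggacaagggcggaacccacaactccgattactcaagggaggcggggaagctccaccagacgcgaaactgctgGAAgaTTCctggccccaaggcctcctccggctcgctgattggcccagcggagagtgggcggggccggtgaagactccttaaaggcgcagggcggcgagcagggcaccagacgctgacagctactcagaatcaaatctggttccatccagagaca
Hspb1: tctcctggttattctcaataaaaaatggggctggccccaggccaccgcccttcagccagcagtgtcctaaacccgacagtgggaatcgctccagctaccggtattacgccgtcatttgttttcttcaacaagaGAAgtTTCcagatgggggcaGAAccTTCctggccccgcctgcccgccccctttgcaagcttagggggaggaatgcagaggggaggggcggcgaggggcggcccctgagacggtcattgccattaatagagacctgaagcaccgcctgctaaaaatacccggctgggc
Bag3: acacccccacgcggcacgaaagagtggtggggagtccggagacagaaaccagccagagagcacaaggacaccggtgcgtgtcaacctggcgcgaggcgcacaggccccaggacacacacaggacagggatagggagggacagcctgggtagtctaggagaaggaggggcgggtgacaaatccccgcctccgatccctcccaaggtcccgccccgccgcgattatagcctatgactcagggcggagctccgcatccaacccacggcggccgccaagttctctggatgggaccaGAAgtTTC
Hspb7: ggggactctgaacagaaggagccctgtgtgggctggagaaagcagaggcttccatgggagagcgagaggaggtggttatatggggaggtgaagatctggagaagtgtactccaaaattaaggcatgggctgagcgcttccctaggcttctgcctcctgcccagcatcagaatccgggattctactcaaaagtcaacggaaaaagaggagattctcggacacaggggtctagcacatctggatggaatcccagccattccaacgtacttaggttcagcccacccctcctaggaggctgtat
The search, on both strands, was for GAANNTTC or TTCNNGAA, and for the longer elements GAANNTTCNNGAA or TTCNNGAANNTTC, of which the shorter form is a part. Counting from the annotated start, Hspb1 held 2 short elements, which begin at -117 and -97, Hspa1b held 1, which begins at -104, and Bag3 held 1, which begins at 42. No short element was in the Hspb7 window, which says only that these letters are not in it. Of the 7 members with a window, 6 held a short element in at least 1 window, against 15.1% of all 32851 windows, and 0 held the longer form, which is in 0.603% of all windows. Hspb2 and Cryab have no window in the table used. The Hspa1b and Hspa1a windows share 296 of 300 bases.

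Across chaperone genes, untreated WT replicate 3 differed from the other untreated WT libraries in a small set. It exceeded both others by more than 2 times in RPKM for 3 of the 9 members (Hspa1b, Hspb1 and Bag3), for 8 of 97 genes in the other chaperone lists, and for 201 of 14846 genes tested (1.35%). These are ratios between single libraries and carry no test. Relative to the mean of the other 2 libraries, Hspa1b was 444 times higher, Hspb1 4.83 times and Bag3 3.49 times. The other chaperone genes past 2 times both other libraries included Hspa1a, Hspa4l and Hsph1 of the HSP70 and HSP110 family, and Hsp90aa1, the stress-inducible HSP90. The rest were the J-domain genes Dnaja1, Dnaja4 and Dnajb1 and the chaperonin Hspe1. All of these were chosen after their values were seen. Dnajb1, an inducible HSP40 that loads clients on HSP70, had 155 RPKM there, 69.8 times the mean of the other 2, and Hsp90aa1 had 252 RPKM, 14.6 times. Cryab was 1.64 times and Hspb8 1.502 times the mean of the others, and neither exceeded both others by more than 2 times. Of 8 immediate early genes, which are transcribed within minutes of a stimulus, Fos and Egr1 also passed 2 times in this library. Their part in its chaperone values was not tested.

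**Figure D2:**
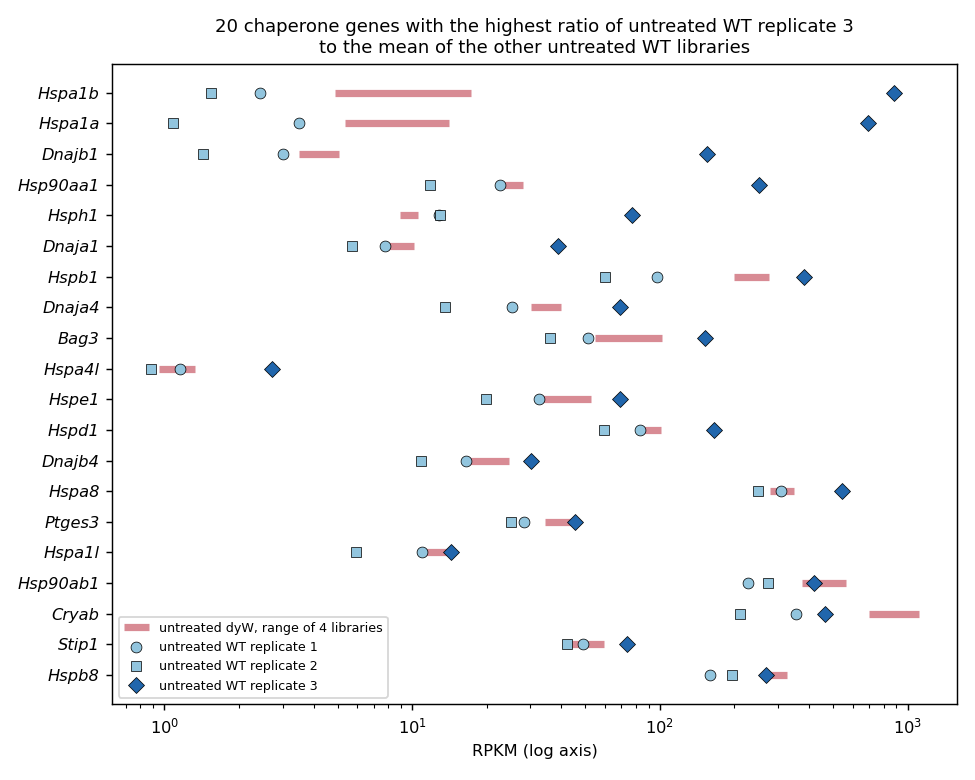
RPKM (log axis) of the 20 chaperone genes with the highest ratio of untreated WT replicate 3 to the mean of the other 2 untreated WT libraries; red bars span the 4 untreated dyW libraries. Hspa1b, Hspa1a and Dnajb1 lie at 883, 691 and 155 RPKM in that library, apart from all other points in their lines.

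Over all genes, 49.8% of the 14846 tested were called in untreated dyW against untreated WT, 24.7% higher and 25.1% lower. Of the 9 members, 2 were called higher (Hspb7 and Cryab), 1 was called lower (Hspa1b) and 6 were not called. With all libraries, the members' calls were thus not above the background of all genes. The median log2 fold change was -0.09 over the members and 0.03 over all genes tested. Without untreated WT replicate 3, 38.2% of 15157 genes were called, 18.5% higher and 19.8% lower, and of the members 4 were called higher (Hspb7, Cryab, Hspb1 and Hspa1b) and 0 lower. In that fit the median log2 fold change was 0.57 over the members and 0.035 over all genes tested. In RPKM, which carries the composition shift, the 2 groups did not overlap for 4 members (Hspb6, Hspb7, Hspb8 and Cryab), beside 61.2% of all genes.

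Hspb7 (ENSMUSG00000006221, chr4:141420779-141425311, plus strand, 3 exons), a cardiac and skeletal muscle small heat shock protein that acts on actin and filamin C, had the largest rise. It had 577, 422, 477 and 364 RPKM in untreated dyW, against 90.8, 11.3 and 22.6 RPKM in untreated WT. The groups did not overlap. In the fit Hspb7 rose by a log2 fold change of 3.00 ± 0.62 (adjusted p = 0.00442). It was called in all 16 alternatives run for this comparison, with values of 2.57 to 4.15 and adjusted p of at most 0.0216.

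Cryab (ENSMUSG00000032060, chr9:50752758-50756633, plus strand, 3 exons) encodes alpha-B crystallin, which binds desmin and titin and is mutated in a form of myofibrillar myopathy. It had 899.7, 702, 1112 and 835 RPKM in untreated dyW, against 355, 212 and 464 RPKM in untreated WT. All dyW libraries were above all WT libraries. Cryab rose by a log2 fold change of 0.82 ± 0.26 (adjusted p = 0.0295), and 1.13 ± 0.24 (adjusted p = 0.0103) without untreated WT replicate 3. The call was lost without untreated WT replicate 1 (0.77, adjusted p = 0.0828) or 2 (0.58, adjusted p = 0.0875) and without untreated dyW replicate 1 (0.80, adjusted p = 0.0501) or 3 (0.77, adjusted p = 0.0637). It held in 11 of 16 alternatives, which gave adjusted p of 0.00347 to 0.101.

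Hspb2 (ENSMUSG00000038086, chr9:50751072-50752354, minus strand, 2 exons) lies 403 bases from Cryab, head to head, and encodes a muscle protein that binds the kinase DMPK in humans. It had 52.3, 55.8, 95.4 and 90.9 RPKM in untreated dyW, against 52.1, 49.6 and 55.3 RPKM in untreated WT. Untreated dyW replicates 3 and 4, the libraries with high Myh7, were high, and the other dyW libraries lay within or next to the WT range. In the fit Hspb2 was at -0.07 ± 0.20 on the log2 scale (adjusted p = 0.788); without those 2 dyW libraries it was -0.42 ± 0.12 (adjusted p = 0.0336). The RPKM ratio of Cryab to Hspb2 was 17.2, 12.6, 11.7 and 9.18 in untreated dyW, against 6.82, 4.26 and 8.39 in untreated WT, with no overlap. In the other groups the ratio was 5.96 to 7.97 in dyW TD139, 5.04 to 8.21 in dyW PBS, 4.63 to 5.12 in WT TD139 and 4.31 to 12.5 in WT PBS. The highest of the WT PBS values was that of replicate 1. In GENCODE M21, Cryab overlaps the deposited span of Hspb2 on the other strand, and whether the authors' counting used strand is not stated.

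Hspb6 (ENSMUSG00000036854, chr7:30552178-30555443, plus strand, 9 listed exons) encodes HSP20, which is phosphorylated by protein kinase A in muscle. It had 611, 454, 393 and 289 RPKM in untreated dyW, against 284, 137 and 170.1 RPKM in untreated WT. The groups did not overlap, although untreated dyW replicate 4 and untreated WT replicate 1 were close. Hspb6 was at a log2 fold change of 0.64 ± 0.30 (adjusted p = 0.111), and without untreated dyW replicates 3 and 4 it was 1.00 ± 0.29 (adjusted p = 0.0322). The gene overlaps Lin37 and Proser3 on the other strand, and whether the authors' counting used strand is not stated.

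Hspb8 (ENSMUSG00000041548, chr5:116408491-116422864, minus strand, 5 listed exons), the partner of BAG3, had 271, 284, 325 and 274 RPKM in untreated dyW, against 159.7, 196 and 267 RPKM in untreated WT. The RPKM groups did not overlap, but the fitted log2 fold change was -0.09 ± 0.21 (adjusted p = 0.726). Hspb3 (ENSMUSG00000051456, chr13:113662896-113663676, minus strand, 1 exon), which pairs with HSPB2 in muscle, had 24.0 to 41.6 RPKM in untreated dyW and 20.02 to 30.8 RPKM in untreated WT, with a log2 fold change of -0.13 ± 0.18 (adjusted p = 0.572). The groups of Hspb3 overlapped. On log2(RPKM + 0.1) without composition scaling, limma put the median of all genes at 0.51 and 85.5% of its calls higher, against 49.6% of the calls with TMM. Hspb8 was called on that scale (0.50, adjusted p = 0.0489), as was Hspb6 (1.16, adjusted p = 0.0125). Hspb8 lay below that median, as did Hspb2 at 0.44, Hspb3 at 0.41 and Bag3 at 0.20. Relative to that median Hspb7 was at 3.48, Cryab at 0.91 and Hspb6 at 0.66 on that scale.

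**Figure D3:**
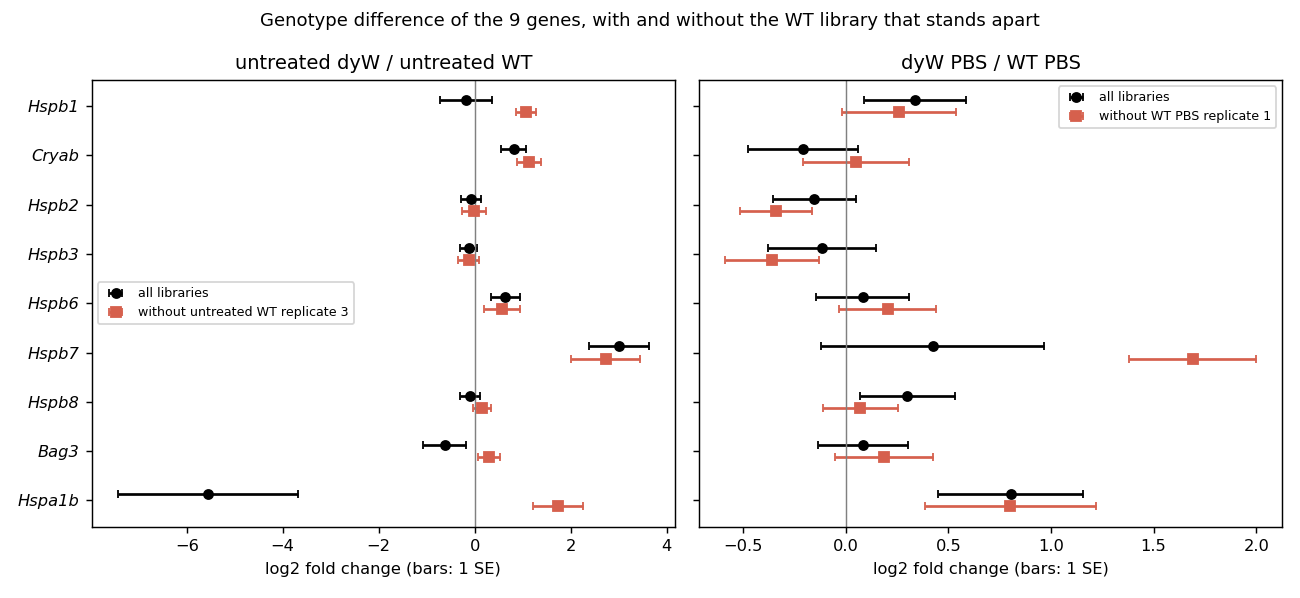
Fitted log2 fold changes of the 9 genes (points, bars of 1 SE) for untreated dyW over untreated WT, left, and dyW PBS over WT PBS, right, with all libraries (black) and without the WT library that stands apart (red). Hspa1b is at -5.55 with all untreated libraries and at 1.75 without untreated WT replicate 3, and Hspb7 under PBS is at 0.42 with all libraries and at 1.69 without WT PBS replicate 1.

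The authors' deposited table for untreated dyW against WT lists Hspb7 at a log2 fold change of 2.98 (FDR-adjusted p = 2.55e-12), Cryab at 0.79 (0.0232) and Hspa1b at -5.58 (1.43e-08). In the authors' deposited table the other 6 members have FDR-adjusted p of 0.106 or more.

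Other cells and fibre types differed between the same libraries. The 10 slow fibre markers summed to 142, 364, 1966 and 2405 RPKM in untreated dyW replicates 1 to 4, against 156, 15.2 and 27.7 RPKM in untreated WT replicates 1 to 3, and 7 of 10 were called higher. Macrophage markers summed to 310.3 to 367 RPKM in untreated dyW and 37.2 to 62.3 RPKM in untreated WT, with 7 of 7 tested called higher. In the fit without untreated WT replicate 3, 2 of 10 slow fibre, 7 of 7 macrophage, 6 of 8 regenerating fibre, 3 of 8 smooth muscle, 4 of 8 fibroblast, 2 of 8 endothelial and 0 of 6 adipocyte markers were called higher. With all libraries, smooth muscle markers (5 of 8 higher) summed to 129 to 180 RPKM in untreated dyW and 49.3 to 64.0 RPKM in untreated WT. Fibroblast markers (5 of 8 higher) summed to 1279 to 2286 RPKM in untreated dyW and 591 to 729 RPKM in untreated WT, and endothelial markers (4 of 8 higher) to 84.6 to 105 and 44.2 to 56.4 RPKM in the same groups. Adipocyte markers (2 of 6 higher) summed to 736 to 4144 RPKM in untreated dyW and 205 to 846 RPKM in untreated WT, which overlapped. These lists thus gave higher sums in untreated dyW, apart from the overlap in adipocyte and slow fibre markers. Regenerating fibre markers, 6 of 8 called higher, summed to 641 to 992 RPKM in untreated dyW and 2112 to 3800 RPKM in untreated WT, and 1 of the 8, Actc1, was called lower. Skeletal muscle markers, 4 of 8 called lower, summed to 37929 to 47841 RPKM in untreated dyW and 52502 to 63015 RPKM in untreated WT. No marker in these lists was at 0 in every library of either group. Their part in the results for Hspb7, Cryab and Hspb1 was not tested. In untreated dyW, Hspb7 was highest in replicate 1 (577 RPKM), the library of that group lowest in slow fibre markers (142 RPKM). In untreated WT, Hspb7 was highest in replicate 1 (90.8 RPKM), the library of that group highest in those markers (156 RPKM). In a fit without untreated dyW replicates 3 and 4, which called 41.3% of 14784 genes (21.7% higher and 19.6% lower), 2 members were higher (Hspb6 and Hspb7) and 1 was lower (Hspb2). There the Hspb7 log2 fold change was 3.20 ± 0.75 (adjusted p = 0.0152), and that of Cryab was 0.77 ± 0.33 (adjusted p = 0.101).

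**Figure D4:**
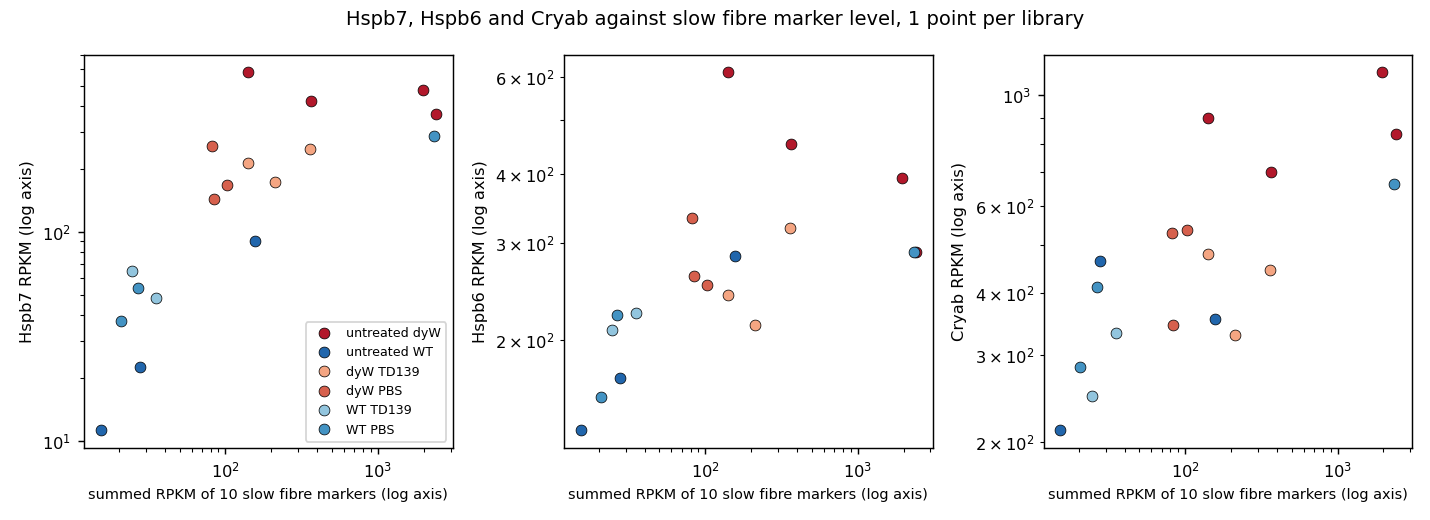
RPKM of Hspb7, Hspb6 and Cryab against the summed RPKM of 10 slow fibre markers (log axes), 1 point per library, coloured by group. WT PBS replicate 1 lies at 2334 RPKM of slow fibre markers and 287 RPKM of Hspb7, and untreated dyW replicate 1 has the highest Hspb7, 577 RPKM, at 142 RPKM of slow fibre markers.

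The second comparison of genotypes was in the PBS groups. Of 15331 genes tested, 2.68% were called in dyW PBS against WT PBS, 2.4% higher and 0.28% lower. None of the 9 members was called by edgeR or DESeq2 (0 of 9 each), and 1, Hspa1b, had an unadjusted p under 0.05. Hspb7 had 167, 144 and 258 RPKM in dyW PBS, against 287, 53.7 and 37.5 RPKM in WT PBS. All dyW PBS libraries were above WT PBS replicates 2 and 3 and below WT PBS replicate 1. The log2 fold change was 0.42 ± 0.55 (adjusted p = 0.775), and without WT PBS replicate 1 it was 1.69 ± 0.31 (adjusted p = 0.0166), in a fit that called 3.94% of 15256 genes (3.05% higher and 0.891% lower) and no other member. Slow fibre markers summed to 103, 83.8 and 81.8 RPKM in dyW PBS, against 2334, 26.5 and 20.5 RPKM in WT PBS. Macrophage markers, 7 of 7 called higher, summed to 77.6 to 206 RPKM in dyW PBS and 24.1 to 26.3 RPKM in WT PBS. Their part in these values was not tested.

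Hspa1b had 4.93, 6.69 and 7.60 RPKM in dyW PBS, against 3.43, 3.12 and 2.60 RPKM in WT PBS. The groups did not overlap and no WT PBS library was raised as untreated WT replicate 3 was, but the log2 fold change of 0.80 ± 0.35 did not pass (adjusted p = 0.309). Hspb1 had 189.7, 178 and 217 RPKM in dyW PBS, against 127, 155 and 96.2 RPKM in WT PBS, again without overlap, at a log2 fold change of 0.34 ± 0.25 (adjusted p = 0.574). Hspb8 was the only other member without overlap in RPKM, at 0.30 ± 0.23 (adjusted p = 0.594), and groups did not overlap for 24.6% of all genes. Cryab had 535, 344 and 529 RPKM in dyW PBS, against 664, 412 and 284 RPKM in WT PBS, overlapping, with a log2 fold change of -0.21 ± 0.27 (adjusted p = 0.774). Without WT PBS replicate 1, Cryab was at 0.05 ± 0.26 (adjusted p = 0.943) and Hspb8 at 0.07 ± 0.18 (adjusted p = 0.877). With all libraries the log2 fold change was 0.08 ± 0.23 for Hspb6 and 0.08 ± 0.22 for Bag3. It was -0.15 ± 0.20 for Hspb2 and -0.12 ± 0.26 for Hspb3, and none of these was called.

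Whether the genotype effect was larger in untreated than in PBS mice was tested over all 18 libraries; cohort, age label and PBS cannot be told apart there. With edgeR this called 1.72% of 15771 genes, 0.526% higher and 1.2% lower, and 0 of 9 members, with 3 members at an unadjusted p under 0.05. DESeq2 called none of the members, but it gave no adjusted p for Hspa1b. The difference was 2.56 ± 0.87 for Hspb7 (adjusted p = 0.104), 1.01 ± 0.39 for Cryab (adjusted p = 0.142) and -6.37 ± 1.91 for Hspa1b (adjusted p = 0.0809), on the log2 scale. On log2(RPKM + 0.1), limma put 61.3% of its calls higher, against 30.5% with TMM, and the median of all genes at 0.23. Without untreated WT replicate 1, Hspb7 (3.73, adjusted p = 0.0285) and Hspa1b (-6.95, adjusted p = 0.0345) passed, in a fit that called 412 of 15755 genes. With each library left out in turn, 0 to 637 genes and 0 to 2 members passed. Without untreated WT replicate 3 and WT PBS replicate 1 together, the difference was 1.03 ± 0.73 for Hspb7 (adjusted p = 0.464), 1.08 ± 0.36 for Cryab (adjusted p = 0.193) and 0.94 ± 0.69 for Hspa1b (adjusted p = 0.485). A difference between the cohorts was thus not shown for any member in the fit of all libraries.

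The question of the treated groups was whether TD139 altered these genes in dyW muscle. None of the 15331 genes tested was called by edgeR in dyW TD139 against dyW PBS (0%), with 583 at an unadjusted p under 0.05 and 4 called by DESeq2. None of the 9 members was called by either tool (0 of 9), and 0 had an unadjusted p under 0.05. Hspb7 had 214, 173 and 248 RPKM in dyW TD139, against 167, 144 and 258 RPKM in dyW PBS, overlapping, with a log2 fold change of 0.18 ± 0.54 (adjusted p = 0.961). Hspb8 had 222, 166 and 205 RPKM in dyW TD139, against 286, 241 and 256 RPKM in dyW PBS. The groups of Hspb8 did not overlap, nor did those of Hspb2, as was so for 14.1% of all genes. The log2 fold change of Hspb8 was -0.35 ± 0.23 and that of Hspb2 was -0.26 ± 0.20 (adjusted p = 0.888 each).

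Hspa1b had 3.02, 10.1 and 9.23 RPKM in dyW TD139, against 4.93, 6.69 and 7.60 RPKM in dyW PBS, with dyW TD139 replicate 1 below the others and a log2 fold change of 0.24 ± 0.35 (adjusted p = 0.920). Cryab had 479.5, 329 and 445 RPKM in dyW TD139, against 535, 344 and 529 RPKM in dyW PBS, with a log2 fold change of -0.12 ± 0.27 (adjusted p = 0.948). The other 4 members had log2 fold changes between -0.27 (Hspb3) and -0.10 (Hspb6). With standard errors of up to 0.54 and adjustment over all genes tested, changes well above that size could also go uncalled. In the authors' deposited table for this comparison, the 9 members have FDR-adjusted p of 0.904 or more.

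In WT TD139 against WT PBS, edgeR called 0 of 15331 genes (0%), with 304 at an unadjusted p under 0.05 and 3 called by DESeq2, and 0 of 9 members passed either tool or an unadjusted p under 0.05. The groups overlapped in RPKM for all 9 members, beside 9.31% of all genes without overlap. Hspb7 had 48.4 and 64.7 RPKM in WT TD139, against 287, 53.7 and 37.5 RPKM in WT PBS. The log2 fold change was -0.95 ± 0.63 with all libraries and 0.32 ± 0.32 without WT PBS replicate 1 (adjusted p = 1 each). That of Cryab was -0.51 ± 0.30 with all libraries and -0.25 ± 0.28 without that one (adjusted p = 1 each). Hspa1b had 2.98 and 3.18 RPKM in WT TD139, within the range of 2.60 to 3.43 RPKM in WT PBS.

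For no member was TD139 shown to act differently in dyW than in WT. That test called 0 of 15331 genes (0%) by edgeR and 1 by DESeq2, with 294 at an unadjusted p under 0.05 and 0 of the 9 members among them. For Hspb7 the difference was 1.14 ± 0.83 on the log2 scale (adjusted p = 1.00) and -0.13 ± 0.41 without WT PBS replicate 1.

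Under TD139, dyW and WT were compared in the libraries already described, so this comparison shares each group with another. Of 15331 genes, 1.04% were called in dyW TD139 against WT TD139 (0.757% higher and 0.287% lower). With TMM 72.5% of the calls were higher, while on log2(RPKM + 0.1) limma put 94.0% of its calls higher and the median of all genes at 0.33. None of the 9 members was called by edgeR or DESeq2 (0 of 9 each), and 2, Hspb7 and Hspa1b, had an unadjusted p under 0.05. Hspb7 had 214, 173 and 248 RPKM in dyW TD139, against 48.4 and 64.7 RPKM in WT TD139, with no overlap. Its fitted log2 fold change was 1.56 ± 0.64 (adjusted p = 0.259). In a fit of these 2 groups alone it was 1.54 ± 0.21 (adjusted p = 0.0173). Slow fibre markers summed to 141, 211 and 360 RPKM in dyW TD139, against 35.2 and 24.4 RPKM in WT TD139, and their part in this difference was not tested. The log2 fold change was 0.93 ± 0.40 for Hspa1b (adjusted p = 0.288) and 0.18 ± 0.30 for Cryab (adjusted p = 0.805). Bag3 was the other member without overlap in RPKM, at a log2 fold change of 0.08 ± 0.25, and 51.4% of all genes did not overlap.

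The same lists of chaperone genes were counted around the members in untreated dyW against untreated WT. In the HSP70 and HSP110 family, 1 of 13 tested genes was called higher and 5 lower, with a median log2 fold change of -0.23. Hspa2, a constitutive HSP70 best known from the testis, rose by a log2 fold change of 1.80 ± 0.25 (adjusted p = 0.000703). Hsph1, the HSP110 nucleotide exchange factor, fell by 2.36 with all libraries (adjusted p = 0.0119) and by 0.90 without untreated WT replicate 3 (adjusted p = 0.00357). Hspa8, the constitutive HSC70, fell by 0.80 (adjusted p = 0.0350), a call lost without that library (-0.37, adjusted p = 0.135). The counts were 1 higher and 2 lower without untreated WT replicate 3.

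Of 14 HSP90 genes and co-chaperones, 0 were called higher and 8 lower, at a median of -0.43, and 5 were lower without untreated WT replicate 3. Unc45b, the myosin chaperone of striated muscle, fell by 1.33 (adjusted p = 0.000473), and Smyd1, a methyltransferase that works with it in the sarcomere, fell by 1.04 (adjusted p = 0.00128). Both stayed called without that library, with log2 fold changes of -1.22 and -1.04. Under PBS they were at -0.54 each and were not called (adjusted p of 0.241 for Unc45b and 0.269 for Smyd1).

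Of 18 J-domain co-chaperones, 1 was called higher and 7 lower, at a median of -0.39, with 1 and 3 without untreated WT replicate 3. Dnajb5 fell by 1.41 (adjusted p = 0.000410) and Dnajb11, an HSP40 of the endoplasmic reticulum, rose by 0.41 (adjusted p = 0.0135). Of 9 BAG family and nucleotide exchange genes, 1 was higher, Bag1 at 0.39 (adjusted p = 0.0266, lost without that library at 0.0558), and 1 was lower, Grpel2 of the mitochondrial matrix at -0.50 (adjusted p = 0.00238), around a median of 0.11. Of 16 chaperonin and prefoldin genes, 0 were higher and 4 lower, at a median of -0.15, and 2 were lower without that library. Of 13 genes of chaperone-assisted selective autophagy, the route that BAG3 and HSPB8 serve, 0 were higher and 4 lower (Synpo2, Vps33a, Vps39 and Vps41), at a median of -0.09, and 2 were lower without that library. These falls are on the TMM scale. In mean RPKM, Synpo2 had 45.3 in untreated dyW against 43.4 in untreated WT, Vps39 3.55 against 3.14 and Grpel2 4.54 against 4.38. Vps33a, at 7.42 against 7.55, and Vps41, at 12.9 against 15.2, were lower in mean RPKM too.

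Hsf1, heat shock factor 1, had 13.7, 13.6, 11.8 and 12.04 RPKM in untreated dyW, against 15.3, 14.6 and 13.3 RPKM in untreated WT. It was not raised in untreated WT replicate 3, which had the lowest value of its group, but RNA level does not measure HSF1 activity. The groups overlapped in RPKM. With TMM scaling the log2 fold change of Hsf1 was -0.72 ± 0.12 (adjusted p = 0.00190). Hsf1 was the only one of 5 heat shock factor and regulator genes called in either direction. Among 8 client and partner genes of small heat shock proteins, 3 were higher and 3 lower with and without untreated WT replicate 3. Desmin (Des), the intermediate filament that CRYAB binds, rose by 0.88 (adjusted p = 0.00251) and vimentin (Vim) by 1.98 (adjusted p = 0.000177), while titin (Ttn) fell by 2.26 (adjusted p = 0.000488) and the Z-disc gene Ldb3 fell by 0.92 (adjusted p = 0.00363). The counts with all libraries are read against the 24.7% higher and 25.1% lower of all genes. Those without untreated WT replicate 3 are read against 18.5% higher and 19.8% lower. The list medians above are with all libraries. Without untreated WT replicate 3 they were -0.06 for the HSP70 and HSP110 family, -0.31 for HSP90 genes and -0.15 for J-domain genes. For BAG family, chaperonin and selective autophagy genes they were 0.09, -0.06 and -0.15. All these counts rest on TMM scaling, and some genes called lower did not have a lower mean RPKM in untreated dyW. In the PBS comparison, 0 genes of these chaperone and client lists were called in either direction. Of 4 other small heat shock genes, only Hspb11 passed the filter on low counts, at 0.30 ± 0.17 (adjusted p = 0.178).

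Members also differed in which other genes had the profile nearest to theirs over the 18 libraries. Likeness was the mean absolute difference between log2 expression profiles, each centred on its own mean, among 10017 genes. Hspa1b was nearest to Hspa1a (0.30), Dnajb1 (0.63) and Hsp90aa1 (0.73), the genes that were also high in untreated WT replicate 3. Hspb7 was nearest to Actn2 (0.42), a Z-disc alpha-actinin, Fhl2 (0.44) and Casq2 (0.44), the calsequestrin of slow and cardiac muscle. Bag3 was nearest to Hsp90ab1 (0.22), Mafk and Hspe1, and Hspb1 to Ier5 (0.25), Trp53 and Phf23. Cryab was nearest to Stk11ip (0.23), Fnip2 and Sat1, and Hspb6 to Ctdspl (0.18), Rtn3 and Med15. Hspb2 was nearest to Thap3, Srp14 and Pfdn2, Hspb3 to Snrpd2, Anapc13 and Psmb6, and Hspb8 to Ift57, Zkscan14 and Tnip1. Among the members themselves Hspb2 and Hspb3 were the closest pair (0.18), and Hspb2 and its neighbour Cryab were further apart (0.47). This measure is small between any genes that vary little. From their own means the members lay on average 0.23 (Hspb2), 0.30 (Hspb3), 0.28 (Hspb6), 0.39 (Hspb1), 0.39 (Cryab), 1.13 (Hspb7) and 1.11 (Hspa1b) away. A distance not far below such a value shows little likeness in pattern. These are descriptions without a test, and the libraries share depth and composition.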

How the data were processed

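Stranded mRNA libraries of quadriceps were read as pairs of 58-base reads, per the labels' protocols. The authors mapped to mm10, per the submitters' processing notes; the aligner and counter are not given in the sources used here. Per the file headers, the authors deposited for every gene and library a count of exon reads (total and unique) and its RPKM. Whether a count is a read or a pair is not stated. The authors' deposited tables hold log2 fold changes with p-values, raw and FDR-adjusted, by a test that is not stated.

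Total counts were tested here with edgeR 4.0.16 in R 4.3.3 (TMM, filterByExpr with a minimum count of 10 and a minimum total of 15, quasi-likelihood F-test), adjusted by Benjamini-Hochberg over all genes tested, with a call at adjusted p under 0.05. The 7 untreated libraries were fitted alone, the 11 PBS and TD139 libraries as 4 groups, and the cohorts together for the difference between genotype effects. A standard error is the log2 fold change divided by the square root of F. The code was tested on simulated data with 200 changed genes. Each library carries its own animal number and no samples were paired.

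Alternatives were RLE scaling, DESeq2 1.42.0, no filter on low counts, limma 3.58.1 on log2(RPKM + 0.1) and log2(RPKM + 1), unique reads, sex as a term, other libraries in the fit, and each library left out in turn.

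The members, gene lists, marker lists and tests were chosen with earlier results of these data known. All 9 members are named whatever their values, with Hspa1a, Hsf1, Lama2, up to 4 genes of smallest p from each chaperone list, and the 3 most similar genes per member; other genes are said to be chosen after their values were seen. Promoter windows are from RefSeq (GRCm38.p6) and matched 7 members by symbol. Positions are those the authors deposited; 7 of 9 members have the same span in GENCODE M21, and Hspb2 and Cryab differ.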

Additional observations from a re-analysis of the deposited data

How the results depend on the processing

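Group size and single libraries limit these results. In untreated dyW against untreated WT, Hspb7 was called in all 16 alternatives run, Cryab in 11 of 16, and Hspa1b, of 15 with an adjusted p, in 6 as lower and in 1 as higher. With limma on log2(RPKM + 0.1), Hspb6 (1.16, adjusted p = 0.0125) and Hspb8 (0.50, adjusted p = 0.0489) also passed. No paired analysis was possible because each library comes from another mouse and the replicate numbers follow the order of deposit. The cause of each change below was not tested. The median of all genes was 0.51 on log2(RPKM + 0.1), 0.29 on log2(RPKM + 1) and 0.031 with TMM in the untreated comparison. It was 0.25, 0.14 and -0.025 on the same scales in dyW PBS minus WT PBS, and 0.33, 0.19 and 0.010 in dyW TD139 minus WT TD139.

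Values below are log2 fold changes unless they are counts. With limma on log2(RPKM + 0.1), untreated dyW minus untreated WT gave 0.84 for Hspb1, 0.44 for Hspb2, 0.41 for Hspb3, 0.50 for Hspb8 and 0.20 for Bag3, and on log2(RPKM + 1) 0.84, 0.43, 0.39, 0.50 and 0.19 for the same genes. For dyW PBS minus WT PBS these gave 952 and 814 genes past the threshold, 0.17 and 0.17 for Hspb2, 0.23 and 0.22 for Hspb3, and 0.11 and 0.11 for Cryab. For dyW TD139 minus WT TD139 they gave 552 and 296 genes, 0.027 and 0.025 for Hspb3, 0.23 and 0.23 for Hspb6, and 0.29 and 0.28 for Hspb8. For WT TD139 minus WT PBS they gave -0.00056 and -0.00074 for Hspb6 and -0.046 and -0.045 for Hspb8, and for the difference in TD139 effects 0.055 and 0.053 for Bag3. For the difference in genotype effects they gave 75 and 111 genes, 0.19 and 0.19 for Hspb1, and 0.18 and 0.17 for Hspb3.

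DESeq2 called 864 genes in dyW PBS minus WT PBS, 4 in dyW TD139 minus dyW PBS, 3 in WT TD139 minus WT PBS, 739 in dyW TD139 minus WT TD139, 1 for the difference in TD139 effects and 1189 for the difference in genotype effects. It gave -0.0068 for Hspb8 in WT TD139 minus WT PBS and 0.028 for Hspb3 in the difference in genotype effects, as did RLE scaling, at -0.0068 and 0.028. Without the filter, 320 genes passed in dyW TD139 minus WT TD139, and Hspb8 was at -0.020 in WT TD139 minus WT PBS, Bag3 at 0.018 in the difference in TD139 effects and Hspb3 at 0.054 in that of genotype effects. With sex as a term, WT TD139 minus WT PBS gave 0.00088 for Hspb1 and -0.011 for Hspb8, and the difference in TD139 effects 0.0096 for Bag3. With only the 2 groups compared, 193 genes passed in dyW PBS minus WT PBS, 432 genes and 1 member passed in dyW TD139 minus WT TD139, and Hspb8 was at -0.026 in WT TD139 minus WT PBS. Without untreated WT replicate 3 and WT PBS replicate 1 together, an alternative chosen after seeing the data, the difference in genotype effects called 0 genes by edgeR (2819 at an unadjusted p under 0.05) and gave 0.80 for Hspb1, 0.22 for Hspb3, 0.071 for Hspb8, 0.10 for Bag3 and 0.94 for Hspa1b.

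Leaving out each library in turn, untreated dyW minus untreated WT had 1 to 4 members past the threshold, beside 38.2% to 52.4% of all genes tested, with -0.59 to 1.07 for Hspb1, -0.17 to 0.068 for Hspb2, -0.23 to 0.0027 for Hspb3, -0.30 to 0.15 for Hspb8, -0.97 to 0.29 for Bag3 and -6.14 to 1.75 for Hspa1b. The count was 1 without untreated dyW replicate 1 (52.4% of all genes) or 3 (41.7%). For dyW PBS minus WT PBS there were 125 to 601 genes and 0 to 1 members past the threshold, with -0.36 to 0.078 for Hspb3, -0.11 to 0.21 for Hspb6, -0.42 to 0.049 for Cryab and -0.054 to 0.27 for Bag3. For dyW TD139 minus dyW PBS the ranges were -0.26 to 0.087 for Hspb6, -0.30 to 0.032 for Cryab, -0.30 to 0.024 for Bag3 and -0.069 to 0.61 for Hspa1b. For WT TD139 minus WT PBS they were -0.44 to 0.26 for Hspb1, -0.34 to 0.24 for Hspb2, -0.46 to 0.31 for Hspb3, -0.083 to 0.19 for Hspb6, -1.36 to 0.32 for Hspb7, -0.23 to 0.22 for Hspb8 and -0.26 to 0.024 for Bag3, where leaving out a WT TD139 library leaves 1 that is assumed to vary like the other groups. For dyW TD139 minus WT TD139 there were 6 to 91 genes past the threshold, with -0.092 to 0.61 for Hspb1, -0.69 to 0.080 for Hspb3, -0.25 to 0.018 for Hspb6, -0.20 to 0.10 for Hspb8, -0.022 to 0.42 for Cryab and -0.090 to 0.23 for Bag3. For the difference in TD139 effects the ranges were -0.43 to 0.27 for Hspb1, -0.50 to 0.081 for Hspb2, -0.58 to 0.20 for Hspb3, -0.33 to 0.014 for Hspb6, -0.13 to 1.54 for Hspb7, -0.18 to 0.15 for Bag3 and -0.18 to 0.49 for Hspa1b. For the difference in genotype effects there were 0 to 637 genes and 0 to 2 members past the threshold, with -0.94 to 0.72 for Hspb1, -0.078 to 0.25 for Hspb2, -0.22 to 0.22 for Hspb3, -1.07 to 0.20 for Bag3 and -6.95 to 0.94 for Hspa1b. Single libraries moved counts of genes by over 1.5 times. In dyW PBS minus WT PBS there were 129 and 177 without dyW PBS replicates 1 and 2, and 177 and 125 without WT PBS replicates 2 and 3. In dyW TD139 minus WT TD139 there were 32, 69 and 51 without dyW TD139 replicates 1 to 3, and 6 and 91 without WT TD139 replicates 1 and 2. In the difference in genotype effects there were 580, 73, 0 and 4 without untreated dyW replicates 1 to 4, 412, 3 and 0 without untreated WT replicates 1 to 3, 532, 0 and 0 without dyW PBS replicates 1 to 3, and 2, 53 and 637 without WT PBS replicates 1 to 3.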
